A study of Rattus norvegicus with 16 samples.

Results

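Cdkn1a, Cdkn2a, Cdkn2b, Mdm2, Ccng1, Phlda3, Sesn2, Gdf15 and Bax, 9 genes of cell-cycle arrest and the p53 response, were followed in rat kidney cortex. The genes were chosen by symbol, and all 9 were found among the 32623 genes of the deposited count table. Messenger RNA was sequenced in 16 libraries, 4 each from old male, young male, old female and young female rats (Rattus norvegicus). The labels call all animals untreated, give their genotype as Homo without saying of which locus, and give age only as young or old. They name no strain. The series' title names diabetic kidney disease, and no label marks a library as diabetic. Nothing in the labels says that the libraries came from different animals, and the p-values then reflect only how these libraries vary, which may be technical. Bulk tissue was sequenced, so more cells of a type and more RNA per cell cannot be told apart in any value given here.

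p53 is a transcription factor that is held at a low level by the ubiquitin ligase Mdm2 and is stabilised by DNA damage and other stress. It then raises genes that stop the cell cycle, repair damage or start apoptosis, among them Cdkn1a, which encodes p21, an inhibitor of cyclin-dependent kinases. Cdkn2a encodes p16, an inhibitor of Cdk4 and Cdk6, and from another reading frame ARF, an inhibitor of Mdm2, so counts per gene cannot tell p16 from ARF. Cdkn2b lies beside Cdkn2a and encodes p15, another inhibitor of Cdk4 and Cdk6. In kidney, p21 and p16 are widely used as markers of cell-cycle arrest and senescence in the tubule.

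Promoter windows of 300 bases, 250 before and 50 after the annotated start, were read from RefSeq (GRCr8) and matched to 8 of the 9 genes. Those of Cdkn1a (chr20:7150682-7150981, + strand), Cdkn2a (chr5:109107907-109108206, - strand), Cdkn2b (chr5:109134806-109135105, - strand) and Phlda3 (chr13:49744753-49745052, + strand) are shown because these genes had the clearest differences between groups. Each is printed 5′ to 3′ on the gene's strand, and capitals mark matches, on either strand, to the motifs searched: the p53 decamer consensus, the GC box GGGCGG (read as CCGCCC on the other strand), the TATA box TATAAA, the AP-1 site TGANTCA, and the shared element of ATF4 and CHOP, TGATGNAA.
Cdkn1a: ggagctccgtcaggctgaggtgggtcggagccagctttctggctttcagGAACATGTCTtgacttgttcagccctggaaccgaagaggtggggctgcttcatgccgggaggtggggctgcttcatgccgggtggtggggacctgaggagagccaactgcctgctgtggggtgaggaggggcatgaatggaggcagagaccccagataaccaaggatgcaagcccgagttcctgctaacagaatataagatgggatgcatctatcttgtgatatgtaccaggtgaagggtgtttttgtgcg
Cdkn2a: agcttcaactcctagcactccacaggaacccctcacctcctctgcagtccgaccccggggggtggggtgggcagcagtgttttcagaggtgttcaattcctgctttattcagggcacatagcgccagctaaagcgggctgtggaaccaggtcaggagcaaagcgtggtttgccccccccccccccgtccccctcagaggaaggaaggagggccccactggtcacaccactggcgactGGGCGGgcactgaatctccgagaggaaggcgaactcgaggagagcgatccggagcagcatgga
Cdkn2b: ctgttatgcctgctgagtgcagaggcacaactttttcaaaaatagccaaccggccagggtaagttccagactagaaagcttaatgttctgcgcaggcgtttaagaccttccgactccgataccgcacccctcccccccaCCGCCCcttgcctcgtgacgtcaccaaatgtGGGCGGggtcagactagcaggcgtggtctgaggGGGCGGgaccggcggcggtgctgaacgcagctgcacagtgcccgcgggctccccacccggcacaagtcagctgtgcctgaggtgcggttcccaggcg
Phlda3: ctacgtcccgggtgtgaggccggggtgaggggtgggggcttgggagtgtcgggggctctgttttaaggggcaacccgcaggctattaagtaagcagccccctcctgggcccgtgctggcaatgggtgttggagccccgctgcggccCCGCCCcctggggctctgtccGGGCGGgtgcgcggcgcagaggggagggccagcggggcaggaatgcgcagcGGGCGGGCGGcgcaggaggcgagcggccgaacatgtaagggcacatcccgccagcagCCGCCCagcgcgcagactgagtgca

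The capitals in the Cdkn1a window are 1 match to the p53 decamer consensus, GAACATGTCT, starting at position -201 from the start site. Ccng1 was the other gene with a match, at -232, and 7.98% of 33469 promoter windows held one. The capitals in the other windows shown are GGGCGG matches, with 1 in Cdkn2a, 3 in Cdkn2b and 5 in Phlda3, of which a pair overlap. GGGCGG was present in 33.1% of all windows. TATAAA, present in 14.2% of windows, was matched in 1 of the 2 Gdf15 windows. TGANTCA was present in 7.33% of all windows and the ATF4 and CHOP element in 3.98%, and each had 0 matches in the 9 windows of these genes. A match is a description of letters and does not show binding.

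Each library held 10827485 to 35957516 counts, with the widest range among old males. Of all genes, 14390 passed the filter on low counts and were tested with edgeR's quasi-likelihood test, and a gene was called at a Benjamini-Hochberg adjusted p under 0.05 over all of them. Levels are given as CPM, counts scaled to library depth by TMM, which centres the bulk of genes. Sample identifiers in the labels start with OP in old males 1 to 3 and old females 1 and 2, and with DS in all other libraries, and the labels do not explain the prefix. Old and OP therefore overlap, and values within DS libraries are given where they change a call. Markers of inner medulla differed among females by their mean log2 CPM, the score used below. It was 0.867 to 2.83 in old females and 3.11 to 4.07 in young females. Their summed CPM overlapped, at 44.0 to 142.8 in old females and 109.6 to 385.3 in young females. The 6 markers did not move together: log2 fold changes ran from -3.41 to 0.40 in old over young females and from -5.76 to 4.03 in old over young males.

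In old male kidneys, against young male kidneys, 5 of the 8 tested genes were called higher and 0 lower. The background was 25.3% of all tested genes called higher and 24.6% lower. The 5 were Cdkn1a, Cdkn2b, Mdm2, Phlda3 and Bax, and the median log2 fold change of the 8 was 0.53, against 0.00 over all tested genes. Cdkn2b was tested only because it passed the count filter through old males, so this count and this median carry that choice. In old female kidneys, against young female kidneys, 4 were called higher and 0 lower (Cdkn1a, Ccng1, Phlda3 and Sesn2), where the background was 2.54% higher and 3.17% lower, and their median was 0.33. At an unadjusted p under 0.05, 0 of the 8 were lower by edgeR in either comparison. Cdkn1a and Phlda3 were called in both sexes. CPM did not overlap and were higher in old males for 6 of the 9 genes, against 23.7% of all tested genes, and higher in old females for 4, against 5.61%. The 6 include Cdkn2a, which was below the filter and so is not among the tested genes of that share. They also include Cdkn2b, which passed the filter only through old males. With library totals in place of TMM, 7849 genes were called higher and 1329 lower in old males, against 3644 and 3545 with TMM, and the median of all genes moved to 0.32, so small changes in old males depend on the scaling.

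**Figure D1:**
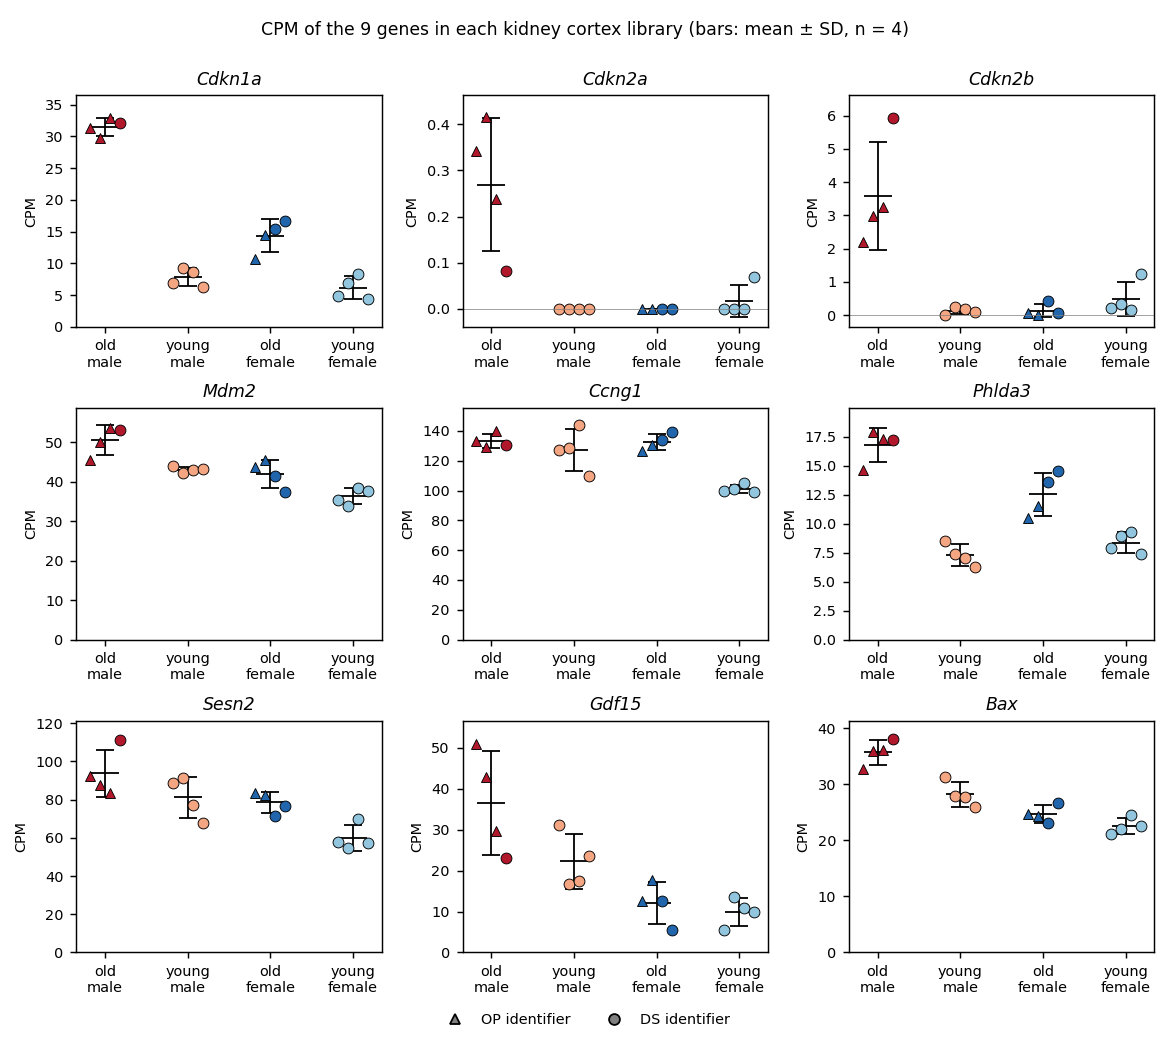
CPM of each of the 9 genes in each of the 16 libraries, in 4 groups of 4, with horizontal bars for the mean ± SD and triangles for OP and circles for DS identifiers. Cdkn1a sits between 29.7 and 33.0 CPM in old males, above all other libraries, while Ccng1 and Sesn2 overlap between old and young males.

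Cdkn1a (p21) had the smallest adjusted p of the 8 genes in both age comparisons. It had 31.4, 29.7, 33.0 and 32.1 CPM in old males, against 6.95, 9.22, 8.70 and 6.25 CPM in young males. In females it had 10.7, 14.4, 15.4 and 16.7 CPM in old libraries, against 4.85, 6.92, 8.34 and 4.43 CPM in young libraries. Old libraries stood above young ones in each sex without overlap, and all old males stood above all old females.

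The log2 fold change of Cdkn1a was 2.01 ± 0.173 (SE) in old over young males, a 4.04-fold difference (edgeR adjusted p = 1.52e-07, n = 4 each). In old over young females it was 1.23 ± 0.182, or 2.34-fold (edgeR adjusted p = 0.00174). The age change was larger in males by 0.79 ± 0.251 on the log2 scale (edgeR adjusted p = 0.0203 for the difference). That difference did not pass without young female 3 (0.59, edgeR adjusted p = 0.0580), in DS libraries alone (0.63, edgeR adjusted p = 0.213) or after adding the inner medulla score to the model (0.84, edgeR adjusted p = 0.103). With that score the change in females was 1.18 (edgeR adjusted p = 0.0975), and in the other alternatives it passed.

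Cdkn2a (p16 and ARF) was detected at a trace level, almost entirely in old males. Its counts were 7, 17, 7 and 1 in old males 1 to 4, against 0 in each of the 4 young males. In females there were 0 counts in each of the 4 old libraries, against 0, 0, 0 and 1 in the young libraries. As CPM, old males had 0.341, 0.415, 0.238 and 0.0824. All 4 old males had at least 1 count, and young female 4 was the only library of another group with any.

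Against a floor of 3 counts over the 4 libraries of the group at 0, pooled Cdkn2a was 5.93-fold higher in old than in young males. It was 6.29-fold higher in old males than in old females. Both values take the old male counts as exact, so they are not lower limits. Cdkn2a was below the count filter, so its CPM was compared by a 2-sided exact permutation test, which gave p = 0.0286 for old against young males and for old males against old females (n = 4 each), the smallest that 70 splits allow. The exact p was 1 for old against young females and for young males against young females. Old male 4, the shallowest library, has a 95% Poisson interval of 0.00209 to 0.459 CPM, and the single count of young female 4 has one of 0.00172 to 0.379, so these 2 libraries cannot be ordered. Of the 32 old male counts, 1 came from the DS library, so the difference from young males and from old females within DS libraries was 0.0824 CPM, with no test, against 0.269 CPM over all libraries. The intervals cover counting error only. In libraries at 0, a level up to 0.168 to 0.250 CPM, the value of 3 counts, was allowed.

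Cdkn2b (p15) was called higher in old males and not in old females. It had 2.19, 2.98, 3.26 and 5.94 CPM in old males, against 0, 0.238, 0.168 and 0.0812 CPM in young males. In females it had 0.0707, 0, 0.414 and 0.0604 CPM in old libraries, against 0.217, 0.334, 0.145 and 1.23 CPM in young libraries. Cdkn2b passed the count filter only through old males, so it had to differ to be tested, and its call among the 5 carries that choice. In fits of only the 2 groups of a comparison without old males it dropped out at the filter. Every old male stood above every other library, and young female 4, at 18 counts, was the highest of the rest.

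The log2 fold change of Cdkn2b was 4.76 ± 0.684 in old over young males and 4.65 ± 0.665 in old males over old females (edgeR adjusted p = 2.61e-05 and 2.28e-05). The pooled counts were 335 in old males, against 7 in young males and 8 in old females. In old over young females the value was -1.84 ± 0.884 and did not pass (edgeR adjusted p = 0.255). The age changes differed between the sexes by 6.60 ± 1.15 (edgeR adjusted p = 0.000296), a value that carries the choice of the count filter too. In DS libraries alone the difference was 6.57. Old males are then the single library old male 4, which had the highest Cdkn2b level of its group. Young female 4 also had the highest inner medulla score of all libraries, at 4.07, and the part of that tissue in its Cdkn2b level was not tested.

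Among genes that p53 raises, Phlda3, which encodes a PH-domain protein that restrains Akt signalling, was, like Cdkn1a, called higher with age in each sex. Phlda3 had 14.7, 17.97, 17.3 and 17.2 CPM in old males, against 8.53, 7.39, 7.07 and 6.25 CPM in young males. It had 10.5, 11.5, 13.6 and 14.6 CPM in old females, against 7.88, 8.92, 9.29 and 7.42 CPM in young females. Old libraries again stood above young ones in each sex without overlap. The log2 fold change was 1.20 ± 0.122 in males (edgeR adjusted p = 7.84e-07) and 0.58 ± 0.124 in females (edgeR adjusted p = 0.0122). The female call was lost without young female 1 (0.55, edgeR adjusted p = 0.0514), without which 2 of the 8 genes were called in females. The age change of Phlda3 was larger in males by 0.61 ± 0.174 (edgeR adjusted p = 0.0103). That difference did not pass in DS libraries alone (0.47, edgeR adjusted p = 0.154) or with the inner medulla score (0.39, edgeR adjusted p = 0.265).

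**Figure D2:**
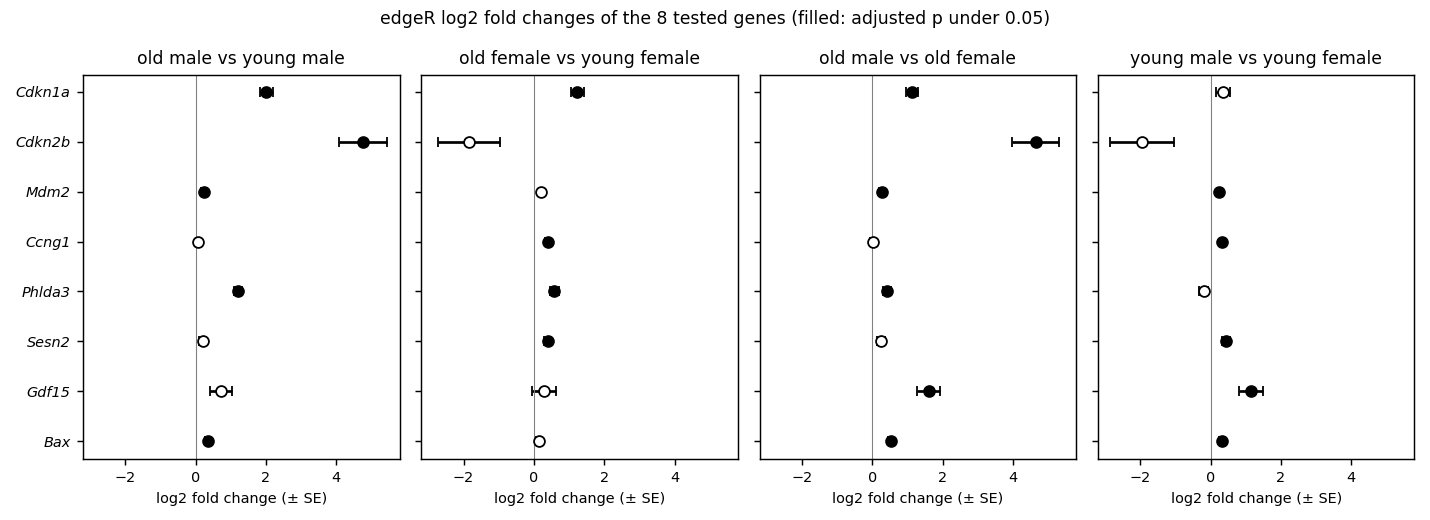
Log2 fold changes (± SE, horizontal axis) of the 8 genes tested with edgeR in 4 comparisons, with filled points at an adjusted p under 0.05. Cdkn2b reaches 4.76 in old over young males and 4.65 in old males over old females, and lies below 0 without passing in the other comparisons.

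Mdm2, the ubiquitin ligase that degrades p53 and is itself a p53 target, moved little. It had 45.4, 50.04, 53.6 and 52.9 CPM in old males, against 43.9, 42.2, 42.9 and 43.1 CPM in young males. It had 43.7, 45.5, 41.3 and 37.4 CPM in old females, against 35.3, 33.9, 38.3 and 37.6 CPM in young females. The male groups did not overlap, and old female 4 fell among the young females. The log2 fold change was 0.23 ± 0.0680 in males (edgeR adjusted p = 0.00968), which did not pass with the identifier prefix as a covariate (0.18, edgeR adjusted p = 0.101). In females it was 0.21 ± 0.0694 and did not pass (edgeR adjusted p = 0.0892). The 2 age changes differed by 0.02 ± 0.0971 (edgeR adjusted p = 0.891).

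Ccng1, which encodes cyclin G1, a p53 target that binds the phosphatase PP2A, changed with age in females and not detectably in males. It had 133, 129, 140 and 131 CPM in old males, against 127, 128, 144 and 110 CPM in young males. It had 126, 131, 134 and 139 CPM in old females, against 99.6, 101, 105 and 99.0 CPM in young females. Young females stood below the other 12 libraries. On the log2 scale the change was 0.06 ± 0.0676 in males (edgeR adjusted p = 0.450) and 0.39 ± 0.0681 in females (edgeR adjusted p = 0.00465). The male change minus the female change was -0.32 ± 0.0960 (edgeR adjusted p = 0.0136). With library totals in place of TMM this turned to 0.06, while the median of all genes for the same difference was 0.37. In DS libraries alone it was -0.41 (edgeR adjusted p = 0.0710).

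Sesn2, encoding sestrin 2, which restrains mTORC1 and is raised by p53 and by the integrated stress response, had 92.3, 87.5, 83.6 and 111 CPM in old males, against 88.7, 91.2, 77.3 and 68.0 CPM in young males. It had 83.6, 82.2, 71.4 and 76.6 CPM in old females, against 57.9, 54.8, 69.6 and 57.3 CPM in young females. The male groups overlapped and the female groups did not. Its age change on the log2 scale was 0.20 ± 0.105 in males (edgeR adjusted p = 0.122) and 0.39 ± 0.106 in females (edgeR adjusted p = 0.0418). In DS libraries alone, where old males are 1 library, the male change was 0.44 and passed (edgeR adjusted p = 0.0406), as it did with library totals (0.53). The female call was lost in 12 of 20 alternatives, and its adjusted p ranged from 0.0152 to 0.704 over the 20. DS libraries alone, at 0.31 in females, were among the 12.

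Gdf15, which encodes a circulating stress cytokine of the TGF-beta superfamily, was called between the sexes at each age and not between the ages. It had 51.1, 42.8, 29.6 and 23.0 CPM in old males, against 31.2, 16.8, 17.5 and 23.6 CPM in young males. It had 12.5, 17.8, 12.6 and 5.44 CPM in old females, against 5.50, 13.7, 10.96 and 9.81 CPM in young females. Old and young overlapped in each sex. The age change did not pass in males (0.73 ± 0.312, edgeR adjusted p = 0.0632) or in females (0.28 ± 0.347, edgeR adjusted p = 0.714). In males it was 0.08 with the identifier prefix as a covariate (edgeR adjusted p = 0.880) and 0.04 in DS libraries alone (edgeR adjusted p = 0.960). It passed in 5 of 20 alternatives: with library totals (1.04), limma-voom (0.74) and only the 2 groups in the fit (0.73), and without old male 4 (0.89, edgeR adjusted p = 0.0268) or without young male 1 (0.93, edgeR adjusted p = 0.0332). Old male 4 is the DS library of its group, and Gdf15 averaged 41.2 CPM in the 3 OP old males, against 23.0 CPM in old male 4.

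Bax, which encodes a pore-forming protein of mitochondrial apoptosis, had 32.7, 36.005, 36.2 and 38.1 CPM in old males, against 31.3, 27.9, 27.8 and 26.0 CPM in young males. It had 24.7, 24.3, 23.1 and 26.7 CPM in old females, against 21.1, 22.1, 24.4 and 22.6 CPM in young females. The male groups did not overlap, and the female groups did. In log2 terms the age change was 0.34 ± 0.0724 in males (edgeR adjusted p = 0.00100), which kept its call in all 20 alternatives, and 0.13 ± 0.0748 in females (edgeR adjusted p = 0.355). The difference between these age changes did not pass (0.21 ± 0.104, edgeR adjusted p = 0.129).

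Between the sexes in old animals, 6 of the 8 genes were called higher in males and 0 lower, where the background was 25.5% of tested genes higher and 23.8% lower. The 6 include Cdkn2b, which passed the count filter only through old males, so its call carries that choice here too. After Cdkn2b, Gdf15 had the largest difference, with a log2 fold change of 1.61 ± 0.325 in old males over old females (edgeR adjusted p = 0.000580). Cdkn1a was 1.14 ± 0.164 (edgeR adjusted p = 2.43e-05). Bax was 0.53 ± 0.0726 (edgeR adjusted p = 1.45e-05). Phlda3 was 0.42 ± 0.116 (edgeR adjusted p = 0.00643) and Mdm2 0.27 ± 0.0679 (edgeR adjusted p = 0.00371). The Phlda3 and Gdf15 calls did not pass in DS libraries alone, at 0.27 and 1.34 (edgeR adjusted p = 0.319 and 0.0603). Sesn2 (0.25 ± 0.105, edgeR adjusted p = 0.0562) and Ccng1 (0.01 ± 0.0676, edgeR adjusted p = 0.924) did not pass. Sesn2 passed in DS libraries alone (0.57, edgeR adjusted p = 0.0237), and in 3 of its other alternatives.

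In young animals 5 of the 8 genes were called higher in males and 0 lower, where the background was 16% higher and 15.7% lower. Gdf15 was 1.16 ± 0.338 on the log2 scale in young males over young females (edgeR adjusted p = 0.0148), and the call was lost without young female 1 (0.95, edgeR adjusted p = 0.0563) or without young male 1 (0.95, edgeR adjusted p = 0.0545). Sesn2 (0.44), Ccng1 (0.33), Bax (0.32) and Mdm2 (0.25) made up the rest of the 5. Cdkn1a did not pass between young males and young females (0.35 ± 0.190, edgeR adjusted p = 0.176), nor did Cdkn2b (-1.95 ± 0.912, edgeR adjusted p = 0.117) or Phlda3 (-0.19 ± 0.129, edgeR adjusted p = 0.279). With the inner medulla score in the model, 0 of the 8 genes passed in this comparison (2 at an unadjusted p under 0.05) and 0 in old over young females (3), where 1369 and 24 of all 14390 genes were called, and the counts of 0 are to be read against those. Young females had the highest scores, so this score and the young female group can hardly be told apart. The comparisons share libraries, so their values are not independent of each other.

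For the difference between the age changes, 3 of the 8 genes were called higher in males (Cdkn1a, Cdkn2b and Phlda3) and Ccng1 lower, where the background was 19.4% higher and 19.3% lower. The call of Cdkn2b again carries the choice of the count filter, which it passed only through old males. Cdkn2b was the 1 of these 4 that passed in DS libraries alone, where old males are 1 library that is assumed to vary like the other groups.

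Per length of transcript, as the deposited RPKM, Ccng1 was at the top of the 9 genes in every group, at 46.2 ± 1.98 RPKM in old males and 35.2 ± 3.42 RPKM in young males, and 39.9 ± 2.16 RPKM for old females, against 31.7 ± 0.871 RPKM for young females (SD, n = 4 each). Gdf15 came next in old males at 44.9 ± 15.003 RPKM, a spread that overlaps that of Ccng1. Bax (31.4 ± 2.41), Sesn2 (28.1 ± 3.55), Mdm2 (19.4 ± 1.72), Cdkn1a (18.1 ± 0.877) and Phlda3 (13.3 ± 1.38) followed in old males. Bax and Sesn2, and Mdm2 and Cdkn1a, were neighbours whose means differed by no more than their spread. In young males Cdkn1a, at 3.56 ± 0.524 RPKM, came after Phlda3, at 4.61 ± 0.667. Cdkn2b (0.715 ± 0.324) and Cdkn2a (0.330 ± 0.177) were far below the others even in old males. The deposited RPKM use library totals in place of TMM, so differences between groups carry that scaling. As CPM, Ccng1 had 133 ± 4.66 in old males, against 127 ± 14.1 CPM in young males.

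**Figure D3:**
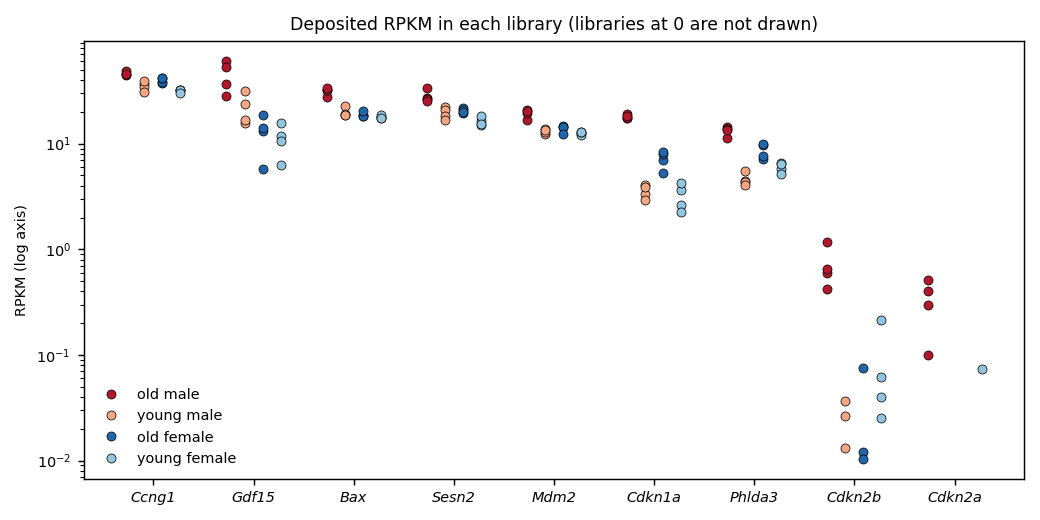
Deposited RPKM (log axis) of the 9 genes in each library, by group, with libraries at 0 left out. The old male level of Cdkn1a, 18.1 RPKM on average, reaches that of Mdm2, 19.4 RPKM, while in the other 3 groups it lies below it.

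Mdm4, which binds and inhibits p53, passed in 0 of the 5 comparisons with edgeR, the smallest unadjusted p being 0.183. Of 11 tested genes in a list of p53 regulators, 2 were called higher and 4 lower in old males, and 0 higher and 1 lower in old females, against 25.3% and 24.6% of all tested genes in males and 2.54% and 3.17% in females. Usp7, a deubiquitinase of Mdm2 and p53, was lower at -0.26, and the ligase gene Rchy1 was also lower at -0.26. Hipk2, a p53 kinase, was lower at -0.60. Atm, the DNA damage kinase, was 0.26 in old males and -0.30 in old females, and both passed.

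Of 35 other tested p53 targets, 13 were called higher and 6 lower in old males, with a median log2 fold change of 0.12, against the background of 25.3% and 24.6%. Sfn, which encodes 14-3-3 sigma, a brake on entry into mitosis, had 9.78 ± 2.02 CPM in old males, against 1.07 ± 0.509 CPM in young males (log2 fold change 3.15). The stress transcription factor gene Atf3 had 24.5 ± 6.71 CPM in old males, against 3.95 ± 1.23 CPM in young males (2.65). The death receptor gene Fas rose by 1.29, and Apaf1, which encodes the scaffold of the apoptosome, by 0.81 in old males. These were the genes with the smallest p, and all went up. Other targets were lower, among them Rrm2b, at 9.36 ± 1.04 CPM in old males, against 15.4 ± 2.38 CPM in young males.

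In old females 3 of the 35 were called higher and 2 lower, with a median of 0.00. The exonuclease gene Aen was higher (0.55) and Tp53inp1, which encodes a p53-induced nuclear protein, was lower (-0.60). Fas was also called higher (0.94), with 2.52 ± 0.699 CPM in old females, against 1.32 ± 0.266 CPM in young females.

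**Figure D4:**
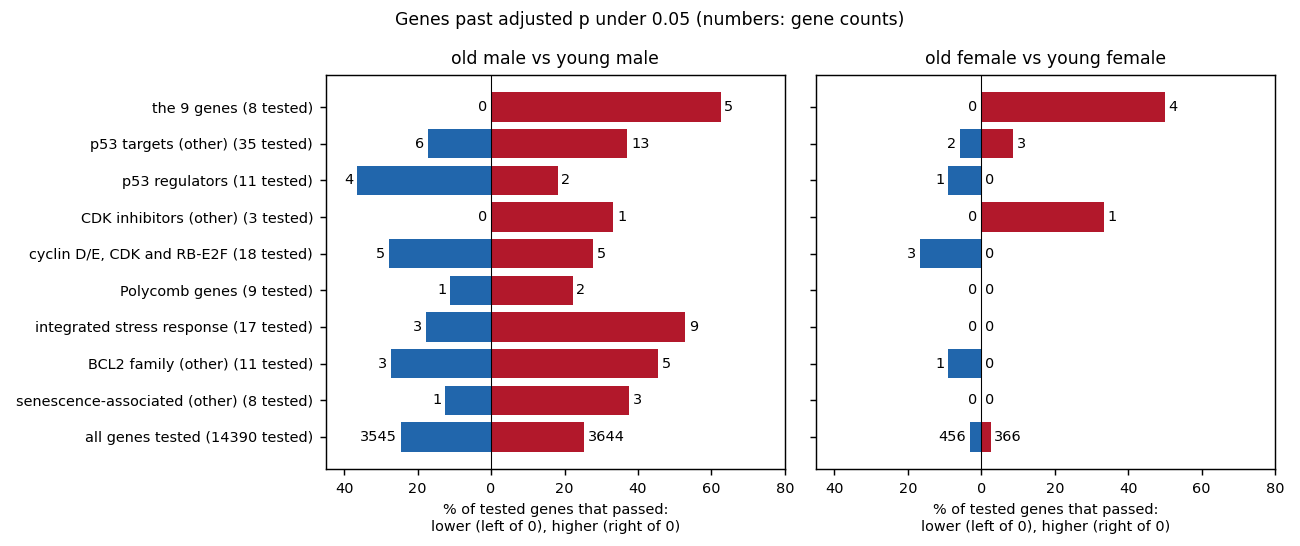
Share of tested genes called higher (right of 0) and lower (left of 0) in each gene list, in old over young males and in old over young females, with gene counts beside the bars. In old females 366 of all tested genes were called higher and 456 lower, and in old males 3644 and 3545.

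The lists that follow stand against 25.3% of all tested genes called higher and 24.6% lower in old males, and 2.54% and 3.17% in old females, and nothing particular to a list is read from its count. Cdkn1c, which encodes p57, was called higher in both sexes, with 27.3 ± 2.59 CPM in old males, against 14.4 ± 2.13 CPM in young males, and 28.3 ± 2.34 CPM in old females, against 16.8 ± 1.28 CPM in young females. It was the 1 of 3 other CDK inhibitor genes that passed, in each sex. Of 18 cyclin, Cdk and RB-E2F genes, 5 were higher and 5 lower in old males, and 0 higher and 3 lower in old females, near the background in males. Ccnd1, which encodes cyclin D1, the partner of Cdk4, had 119 ± 12.8 CPM in old males, against 226 ± 61.8 CPM in young males. In old females Ccnd1 had 193 ± 38.3 CPM, against 311 ± 67.6 CPM in young females, and both differences passed (-0.93 and -0.69). Cdk4, a target of p15 and p16, was higher in old males (0.55), as were E2f2 (1.13) and its partner Tfdp1 (0.31), and Cdk6 was lower in old females (-0.75). Of 9 Polycomb genes, whose products repress the Cdkn2a locus, 2 were higher and 1 lower in old males (Rnf2 0.38, Cbx8 0.49 and Ezh1 -0.30), and in old females 0 passed with edgeR, 1 had an unadjusted p under 0.05 and 1 was called by DESeq2.

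Of 17 genes of the integrated stress response, which also raises Sesn2 and Gdf15, 9 were higher and 3 lower in old males. Asparagine synthetase (Asns, 1.21), the pseudokinase gene Trib3 (2.07) and Ppp1r15a (0.58), which encodes a subunit of the eIF2alpha phosphatase, were higher, and Cth, which encodes cystathionine gamma-lyase, was lower (-1.91). In old females 0 of the 17 passed with edgeR, DESeq2 or limma-voom, and 0 had an unadjusted p under 0.05 in edgeR. Of 11 other BCL2 family genes, 5 were higher and 3 lower in old males, the lower share being near the background. The pore-forming Bak1 was 1.32, the pro-apoptotic Bcl2l11 1.07, the protective Bcl2a1 1.88 and the protective Bcl2l2 -0.56, and in old females Bok passed, at -1.29.

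Of 8 senescence-associated genes, 3 were higher and 1 lower in old males. In old females 0 passed with edgeR, DESeq2 or limma-voom, and 1 had an unadjusted p under 0.05 in edgeR. Plaur, the urokinase receptor gene, had 2.72 ± 0.308 CPM in old males, against 1.07 ± 0.200 CPM in young males (log2 fold change 1.35). Lmnb1, which encodes lamin B1, had 9.15 ± 0.664 CPM in old males, against 3.65 ± 0.972 CPM in young males (1.31), and Hmgb2 was higher by 0.98. Glb1, which encodes the lysosomal beta-galactosidase, was lower at -0.33, with CPM that overlapped between old and young males. Lamin B1 and Hmgb2 are known to fall in senescent cells in culture and to rise in dividing cells.

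Markers of other cells and of division moved with age in males beside these genes. All 8 cell division markers were called higher in old males, and their summed level was 37.4 to 59.7 CPM in old males, against 8.37 to 30.1 CPM in young males. In females the sum was 5.38 to 7.44 CPM in old animals, against 12.1 to 18.5 CPM in young animals, with 3 of 8 called lower. All 8 tested macrophage markers were higher in old males (160 to 261 CPM, against 71.1 to 89.7 CPM in young males), as were all 8 T cell markers (59.6 to 85.1 CPM, against 12.1 to 17.1 CPM in young males).

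B and plasma cell markers summed to 22.1 to 44.0 CPM in old males, against 1.58 to 1.87 CPM in young males, where Ms4a1 was at 0 in all libraries, and 4 of 4 tested were higher. Their sum was also low in old females (1.73 to 5.11 CPM) and young females (1.74 to 2.59 CPM). Some of the 4 may therefore have passed the count filter only through old males, and the 4 of 4 would then carry that choice. Injured tubule markers, led by Spp1, Havcr1 and Lcn2, summed to 8851 to 16410 CPM in old males, against 290 to 481 CPM in young males, with 4 of 5 tested higher and Krt20 at 0 in all old males. Cortex markers summed to 5869 to 9415 CPM in old males, against 10929 to 12018 CPM in young males, with 2 called higher and 3 lower of 9. Fibroblast markers summed to 406 to 483 CPM in old males, against 201 to 235 CPM in young males, with 3 of 6 called higher (Col1a1, Col3a1 and Dcn) and Pdgfra lower. The part of these cells in the old male values of Cdkn1a, Cdkn2a, Cdkn2b, Phlda3, Mdm2 and Bax was not tested. In old over young females, 0 of 8 macrophage and 0 of 8 T cell markers were called by edgeR, with 3 and 0 at an unadjusted p under 0.05 and 1 and 0 called by DESeq2. Other lists did move with age in females: 3 of 6 fibroblast markers and 3 of 6 inner medulla markers were lower, 1 of 4 B and plasma cell markers was lower, and of 5 injured tubule markers 1 was higher and 2 were lower. Apart from the inner medulla score, their part in the female values of Cdkn1a, Ccng1, Phlda3 and Sesn2 was not tested.

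The genes whose pattern over the 16 libraries was most like that of Cdkn1a, by the root mean square difference of centred log2 CPM among 11298 genes, were Pigr (0.354), which encodes the polymeric immunoglobulin receptor, Crtac1 (0.355) and Pcdha13 (0.372). Pigr had 350 ± 52.2 CPM in old males, against 139 ± 16.01 CPM in young males, and 233 ± 50.8 CPM in old females, against 101 ± 5.42 CPM in young females. For Cdkn2a they were C5 (0.327), RT1-S3 (0.333) and Pik3r1 (0.343), and for Gdf15 they were Zmynd15 (0.426), Jun (0.501) and Nipsnap3b (0.506). Every library outside old males held 0 or 1 count of Cdkn2a, so the prior count of 2 compresses its pattern. Its likeness to these genes therefore says little about the size of its change. Pcdha13 shares exons with its cluster and RT1-S3 has near copies, so their counts are uncertain.

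The authors' deposited table of significant genes, whose entries all pass a log2 change of 1, lists Cdkn1a in 3 of its 4 comparisons. Its age comparisons run young over old, so signs are the opposite of those above. In the authors' deposited table, Cdkn1a is at -2.01 in young over old males and -1.22 in young over old females, and at 1.12 in old males over old females. The authors' deposited table also gives Cdkn2b at -4.78 and Phlda3 at -1.20 in young over old males, and Cdkn2b at 4.66 in old males over old females. Gdf15 is at 1.59 in old males over old females and 1.15 in young males over young females in the authors' deposited table.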

How the data were processed

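The deposited table holds raw counts and RPKM per gene for the 16 libraries, made by the authors from a stranded TruSeq mRNA kit (per the labels' protocols). Per the submitters' processing notes, the build is Rnor_6.0 and edgeR 3.8.6 was used. Aligner, counter and strand setting: not given in the sources used here. The deposited RPKM equal the counts divided by the library total and the listed length. The authors' deposited lists of significant genes give log2 fold changes and FDR values, used only as quoted.

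Counts were tested with edgeR 4.0.16 in R 4.3.3 (TMM, filterByExpr, quasi-likelihood F test, all 4 groups in 1 model, Benjamini-Hochberg over 14390 genes), and 18233 genes were not tested. The tested genes hold 99.9% of counts, and the biological coefficient of variation was 0.130. The script was tested on simulated data. Cdkn2a, below the filter, was compared by an exact permutation test on CPM. Fold values against a group at 0 use a floor of 3 counts, and intervals have a confidence level of 95%. For likeness, genes needed a mean of 2 CPM, and 2 was the prior count of log2 CPM. A listed symbol that names more than 1 row was read from the row with most counts.

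All 9 genes are named. From each gene list up to 4 genes with the smallest p in males and up to 2 in females, among those that passed, are named, with Mdm4, and some items are not reported here. Fas in females and the leading markers were named after their values were seen. The genes and lists were chosen with earlier results of these data known. Listed symbols that the table does not hold, among them Bbc3, Mcl1 and E2f1, were not analysed here. Alternatives covered the scaling (RLE factors, library totals), the filter, limma-voom 3.58.1, DESeq2 1.42.0, the groups fitted, a replicate block, the identifier prefix, the inner medulla score, a threshold of 0.01 and leaving out each library.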

Additional observations from a re-analysis of the deposited data

Results flagged for a closer look

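Among groups of 4 libraries, 34 were checked for 1 library far from the others, where chance marks about 1 in 20, and 2 stood out. Young female 4 had the highest Cdkn2a level of its group, 0.0681 CPM from 1 count, with the other 3 young females at 0. Old female 3 had the highest Cdkn2b level of its group, 0.414 CPM from 6 counts, against 0 to 0.0707 CPM in the other old females. Both rest on a few counts.

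The age change differed between the sexes for 4 genes by the interaction test of edgeR. The change in males minus that in females was 0.79 on the log2 scale for Cdkn1a, 6.60 for Cdkn2b, 0.61 for Phlda3 and -0.32 for Ccng1. For Cdkn1a and Phlda3 both sexes moved up, for Cdkn2b the male change alone passed, and for Ccng1 the female change alone passed. Cdkn2b passed the count filter only through old males, so its value here carries that choice.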

How the results depend on the processing

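Cdkn1a, Cdkn2b, Phlda3 and Bax kept their calls in old over young males, and Cdkn1a, Cdkn2b, Mdm2 and Bax theirs in old males over old females, in all 20 alternatives tried for each. For Cdkn2b these calls carry the choice of the count filter, which it passed only through old males. At an adjusted p under 0.01, 2 genes were called in old over young females (4 at 0.05), 3 in young males over young females (5) and 1 for the difference between age changes (4). With library totals the counts were 8 in old over young males (5 with TMM) and 3 in young males over young females, where the median of all genes was 0.32 and -0.17. Of the 3, Sesn2 and Gdf15 were higher and Phlda3 was lower in young males (-0.37, edgeR adjusted p = 0.0433). Mdm2, Ccng1 and Bax lost their calls there. In old males Ccng1 (0.39) and Sesn2 (0.53) passed with library totals, close to or above the median of 0.32. The difference between age changes then turned to 0.060 for Ccng1 and 0.19 for Sesn2 against a median of 0.37. In DS libraries alone 1 gene, and with the inner medulla score 1 gene, was called for that difference, and with the score 0 were called in old over young females and 0 in young males over young females. The cause was not tested.

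Leaving out 1 library gave 2 to 4 called genes in old over young females, 4 to 6 in young males over young females and 3 to 4 for the difference. Over these, the Cdkn2a difference was 0.221 to 0.331 CPM for old males against young males and against old females, and it was 0.0824 CPM for both in DS libraries alone. Its exact p was 0.0571 at a difference of 0.269 CPM whenever 1 library of the group at 0 was left out, since old male 4 has a single count and fewer splits remain. Without a filter, edgeR called Cdkn2a in both comparisons (adjusted p = 0.00279 and 0.00237). In that fit the difference between the age changes of the sexes did not pass for Cdkn2a (7.17, edgeR adjusted p = 0.0556).

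Signs turned only where the value had not passed, apart from Ccng1 with library totals. Ccng1 in old males over old females was -0.0012 with RLE factors and with DESeq2, -0.0026 with 2 groups alone, -0.079 in DS libraries, and -0.015 without old female 1, -0.00037 without old male 1 and -0.022 without old male 3, the lowest of a range up to 0.032 when 1 library was left out. In old over young males Ccng1 was -0.0017 without young male 4, in a range up to 0.13. Gdf15 in old over young females was -0.17 with the prefix covariate, -0.15 in DS libraries and -0.017 with the inner medulla score. Sesn2 for the difference was 0.14 in DS libraries and 0.067 with the score, and Phlda3 in young males over young females was 0.029 with the score. Mdm2 for the difference was -0.0088 without young female 3, -0.033 without old female 4 and -0.0021 without old male 3, in a range up to 0.075.

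Replicate numbers were not used as pairs in the main fit, and whether they pair the samples was not settled. The correlations of 24 same-numbered pairs ran from -0.131 to 0.204, 4 of them over 0.1. Of 16 libraries, 7 correlated best with their own number, and the number expected by chance was not computed. A fit with the replicate block called 5, 3, 5, 6 and 4 genes in old over young males, old over young females, young males over young females, old males over old females and the difference, losing Sesn2 in females (0.39, edgeR adjusted p = 0.0678). Among all genes, those called in old over young females numbered 822, against 219 at 0.01, 259 in DS libraries, 24 with the inner medulla score and 308 to 1013 without 1 library. Low counts limit Cdkn2a and, outside old males, Cdkn2b.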
